A study of Mus musculus with 2116 samples.

Results

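Regulators of G-protein signalling (RGS proteins) were followed in splenic CD4+ T cells of the mouse through 7 genes: Rgs1, Rgs2, Rgs3, Rgs10, Rgs14, Rgs16 and Rgs19. They were taken by symbol from a table of 23725 genes, and all 7 had at least 1 count in both libraries. Each was compared between regulatory T cells (Treg) and conventional T cells (Tconv), and across the cells within each library. Treg cells in which Rgs1 was seen were then set against those in which it was not.

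A G protein is switched on when a receptor loads its alpha subunit with GTP, and it switches itself off by hydrolysing that GTP. RGS proteins bind the active alpha subunit and speed up the hydrolysis, so they shorten the signals that receptors for chemokines, lipids and other ligands send into the cell. In lymphocytes they are best known for tuning how long a cell answers a chemokine gradient, and Rgs1 in particular is known to dampen chemokine-driven migration of B and T cells.

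The cells came from the spleens of male mice aged 8 months of the strain B6 Foxp3-Ires-Gfp, in which a green fluorescent protein is expressed from the locus of Foxp3, the transcription factor that defines Treg cells. Live cells positive for the T cell receptor beta chain and CD4 were sorted and profiled with inDrops, a droplet method that tags every captured mRNA molecule with a unique molecular identifier (UMI). The Treg library held 816 cells and 1468203 UMIs, and the Tconv library held 1300 cells and 2002752 UMIs. Each group was 1 library, the labels name no animals, and the sort protocol gives GFP positive for both populations.

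With 1 library per group no test between Treg and Tconv is possible, and none is given. All intervals are 95% intervals, exact, and cover counting error only. UMIs of a gene gather in the same cells, so the intervals are narrower than the true uncertainty. The group labels were checked with Foxp3, at 558 UMIs in the Treg library and 6 UMIs in the Tconv library. A list of T lineage genes summed to 4591 counts per 1000000 UMIs of the library (CPM) in Treg and 4841 CPM in Tconv. A median Treg cell had 1688.5 UMIs and a median Tconv cell 1510.5. Cells with at least 3 UMIs of any of 7 lists of other cell types, called cells of other-type markers here, made up 11.03% of Treg (90 cells) and 4.08% of Tconv (53 cells). The B cell list summed to 786 CPM in Treg and 238 CPM in Tconv, with Pax5 at 0 in both, and the myeloid list to 578 CPM in Treg and 317 CPM in Tconv. The 2 libraries shared 12 barcode pairs, and those cells were kept. Without them the log2 ratios of the 7 genes stayed within the intervals given here.

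The 7 genes lie on 5 chromosomes of the mouse genome (GRCm38, GENCODE annotation). Rgs2 (chr1:143999338-144004161, minus strand) and Rgs1 (chr1:144242296-144249242, minus strand) are near neighbours, with Rgs13 between them. Rgs13 and Rgs18, another gene of that stretch of chromosome 1, had 0 UMIs in both libraries. Rgs16 lies farther along the same chromosome (chr1:153740349-153745468, plus strand). Rgs14 (chr13:55369732-55384687, plus strand), Rgs19 (chr2:181688419-181693977, minus strand), Rgs3 (chr4:62559847-62704001, plus strand) and Rgs10 (chr7:128373621-128418758, minus strand) lie alone on other chromosomes. Rgs3, Rgs10 and Rgs16 each overlap another annotated gene without a row in the table. The partner of Rgs10 lies on the same strand, and those of Rgs3 and Rgs16 on the opposite strand. Whether counting used the strand is not given in the sources used here, so reads of the partner may be included for each of them.

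Promoter windows from RefSeq (GRCm38.p6), from 250 bases before to 50 bases after an annotated start, were matched by symbol for 5 of the 7 genes. Windows of Rgs2 and Rgs10 are shown here. Rgs2 was the gene whose UMIs gathered in cells with B cell or myeloid markers, and Rgs10 the one seen in the most T cells. Capitals mark motifs found on either strand. Those searched were TATAAA (the TATA box), CCAAT (bound by NF-Y), TGACG (the core of the cyclic AMP response element), GGAAA (bound by NFAT) and GGGCGG (bound by Sp1). The Rgs2 window is chr1:144004100-144004399 on the minus strand, and the Rgs10 window is chr7:128418123-128418422 on the minus strand.

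Rgs2: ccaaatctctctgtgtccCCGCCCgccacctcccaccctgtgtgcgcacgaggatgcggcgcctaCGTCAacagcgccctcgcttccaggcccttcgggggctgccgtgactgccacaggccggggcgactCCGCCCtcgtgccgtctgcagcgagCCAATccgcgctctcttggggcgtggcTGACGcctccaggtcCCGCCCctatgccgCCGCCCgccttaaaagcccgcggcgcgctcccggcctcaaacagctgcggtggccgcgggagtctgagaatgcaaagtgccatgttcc

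Rgs10: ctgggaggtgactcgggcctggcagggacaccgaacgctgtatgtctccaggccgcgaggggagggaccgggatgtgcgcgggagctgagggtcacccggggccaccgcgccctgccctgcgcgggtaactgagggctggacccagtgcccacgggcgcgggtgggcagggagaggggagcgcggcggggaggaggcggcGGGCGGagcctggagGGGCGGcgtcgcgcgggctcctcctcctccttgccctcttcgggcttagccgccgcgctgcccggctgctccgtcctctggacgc

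The Rgs2 window holds 1 CCAAT, 2 TGACG and 4 GGGCGG, and the Rgs10 window holds 2 GGGCGG and none of the others. Among 32851 windows of this length, GGGCGG was found in 35.7%, CCAAT in 37.4% and TGACG in 20.8%. Both windows are rich in G and C, at 76% for Rgs10 and 70% for Rgs2, against a median of 52.7%. These are letters in a window, and they were not compared with the expression values.

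Of the 7 genes, Rgs1 stood farthest apart between the 2 populations. Its summed level was far higher in Treg, where it was seen in 76 of 816 cells, and it was almost absent from Tconv cells. Rgs10, Rgs14 and Rgs3 were seen in both with moderately higher levels in Treg, and Rgs2 and Rgs19 had like levels in both. Rgs16 followed Rgs1 in direction, on very few UMIs. Of the 6 genes with at least 20 UMIs, Rgs1 alone was at least 2-fold higher in Treg and 0 were at least 2-fold lower. Rgs16 was also more than 2-fold higher, on a total below 20 UMIs. For comparison, 8988 genes reached 20 UMIs. Of these, 8.61% stood 2-fold or more above Tconv and 3.6% stood 2-fold or more below, around a median log2 ratio of 0.14. The 7 genes together had 1089 UMIs in Treg and 881 in Tconv. Rgs1 supplied 20.7% of that sum in Treg and 0.454% in Tconv.

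**Figure D1:**
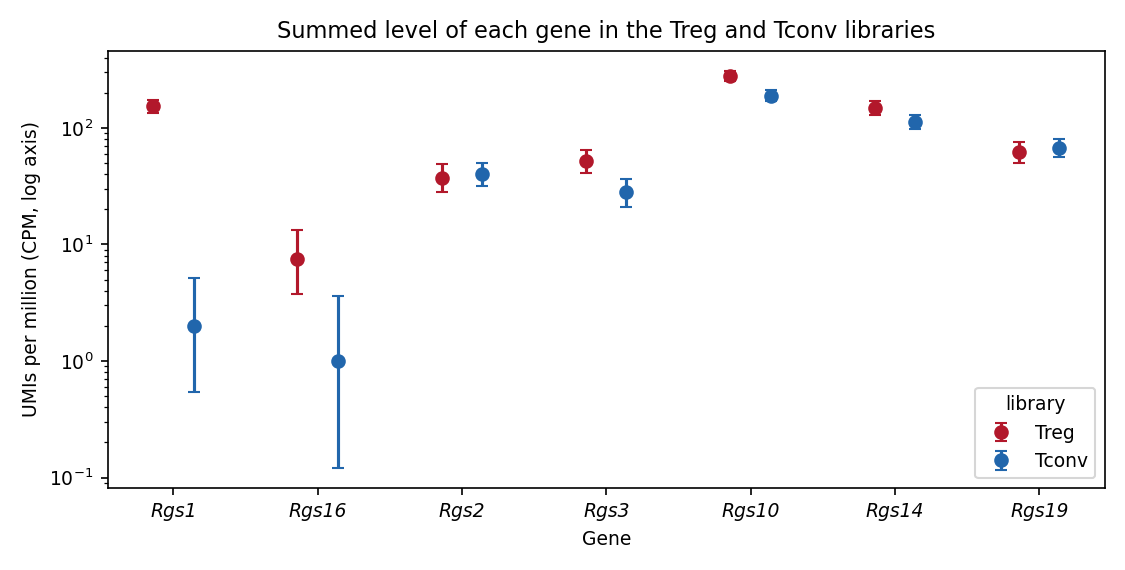
Level of each of the 7 genes, in CPM on a log axis, in the Treg library (red, left of each pair) and the Tconv library (blue). Points are sums over all cells of 1 library and bars are exact 95% Poisson intervals, and the pair of points stands far apart for Rgs1 (153 CPM in Treg, 2.0 CPM in Tconv) and close together for Rgs2 and Rgs19.

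Rgs1 and Rgs16 encode small RGS proteins that consist of little beyond the catalytic domain, and both are known as genes that lymphocytes switch on. Rgs1 had 225 UMIs in Treg, or 153 CPM (134 to 175), and 4 UMIs in Tconv, or 2.0 CPM (0.544 to 5.11). The log2 ratio was 6.26 (4.89 to 8.15), a 76.7-fold higher level in Treg (29.6 to 284). Rgs1 was as far apart without the cells of other-type markers, with 197 UMIs in Treg and 3 in Tconv and a log2 ratio of 6.61. Across all scalings and cell selections tried, the log2 ratio lay between 6.11 and 7.09. Rgs16 had 11 UMIs in 7 Treg cells and 2 UMIs in 2 Tconv cells, which is 7.49 CPM (3.74 to 13.4) and 0.999 CPM (0.121 to 3.61). Its log2 ratio of 2.91 (0.71 to 6.12) rests on a total below the 20 UMIs asked for in the counts over all genes. None of the 7 Treg cells with Rgs16 held an Rgs1 UMI.

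Rgs2, an RGS protein with a preference for alpha subunits of the Gq class, behaved differently from its chromosomal neighbour. It had 55 UMIs in Treg (37.5 CPM, 28.2 to 48.8) and 80 in Tconv (39.9 CPM, 31.7 to 49.7), a log2 ratio of -0.09 (-0.62 to 0.42). Much of it came from cells that also carried markers of other cell types. In Treg, 31 of the 55 UMIs (56.4%) sat in 7 cells of other-type markers, and in Tconv 19 of the 80 UMIs sat in 7 such cells. Without those cells Rgs2 had 24 UMIs in Treg (18.8 CPM) and 61 in Tconv (32.2 CPM), and the log2 ratio was -0.77 (-1.52 to -0.07). In the cells with at least 3 UMIs of B cell or myeloid markers it reached 327 CPM in Treg (39 cells) and 431 CPM in Tconv (22 cells). The part of B and myeloid cells in the unselected ratio was not tested beyond this.

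Rgs10 and Rgs14 are related RGS proteins that act on alpha subunits of the Gi class, and Rgs14 also carries Ras-binding domains and a motif that holds inactive alpha subunits. Rgs10 had 413 UMIs in Treg (281 CPM, 255 to 310) and 379 in Tconv (189 CPM, 171 to 209), a log2 ratio of 0.57 (0.37 to 0.78). Rgs14 had 218 UMIs in Treg (148 CPM, 129 to 170) and 225 in Tconv (112 CPM, 98.1 to 128), a log2 ratio of 0.40 (0.13 to 0.68). Both were higher in Treg by less than 2-fold. The interval of Rgs14 did not clear 0 when ribosomal protein genes were left out of the total (0.27, -0.0055 to 0.55) or with TMM factors (0.25, -0.03 to 0.52). These 2 scalings shift every log2 ratio by -0.13 and -0.16.

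Rgs3, whose longer forms carry domains outside the RGS domain, had 76 Treg UMIs (51.8 CPM, 40.8 to 64.8) and 56 Tconv UMIs (28.0 CPM, 21.1 to 36.3), a log2 ratio of 0.89 (0.37 to 1.41). Rgs19, a membrane-anchored RGS protein that acts on Gi alpha subunits, had 91 UMIs in Treg (62.0 CPM, 49.9 to 76.1) and 135 in Tconv (67.4 CPM, 56.5 to 79.8), a log2 ratio of -0.12 (-0.52 to 0.27). The intervals of Rgs1, Rgs3, Rgs10, Rgs14 and Rgs16 lay above 0, and none of the 7 lay below it. With either of the other 2 scalings that of Rgs14 no longer cleared 0. The share of all genes with such an interval was not counted, and the median log2 ratio of all genes measured was itself 0.14.

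At equal depth the shares of cells ran the same way as the levels. Each cell was thinned to 1000 UMIs, which kept 738 Treg and 1108 Tconv cells. An Rgs1 UMI was seen in 7.32% of Treg cells (interval 5.54 to 9.44) and in 0.181% of Tconv cells (interval 0.0219 to 0.651). Foxp3, which Tconv cells should lack, was seen in 28.3% of Treg and 0.271% of Tconv cells (interval 0.0559 to 0.789). These Tconv shares are 2 cells for Rgs1 and 3 cells for Foxp3, and their intervals overlap. Rgs16 was seen in 0.678% of Treg and 0.0903% of Tconv cells, the Tconv share being 1 cell. Rgs10 was the most widely seen of the 7, in 21.5% of Treg cells (interval 18.6 to 24.7) and in 16.2% of Tconv cells (interval 14 to 18.5). Rgs14 followed with 11.2% of Treg and 9.12% of Tconv cells. Rgs3 was seen in 4.34% of Treg and 2.44% of Tconv cells, and Rgs19 in 6.10% of Treg and 6.50% of Tconv cells. The intervals overlap between the libraries for Rgs2, Rgs3, Rgs14, Rgs16 and Rgs19. Rgs2 was seen in 1.76% of Treg cells (interval 0.941 to 2.99) and in 2.98% of Tconv cells (interval 2.06 to 4.16). Unthinned, Rgs1 was seen in 76 of 816 Treg cells (9.31%) and 3 of 1300 Tconv cells (0.231%), and at least 1 of the 7 genes in 464 Treg and 564 Tconv cells.

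**Figure D2:**
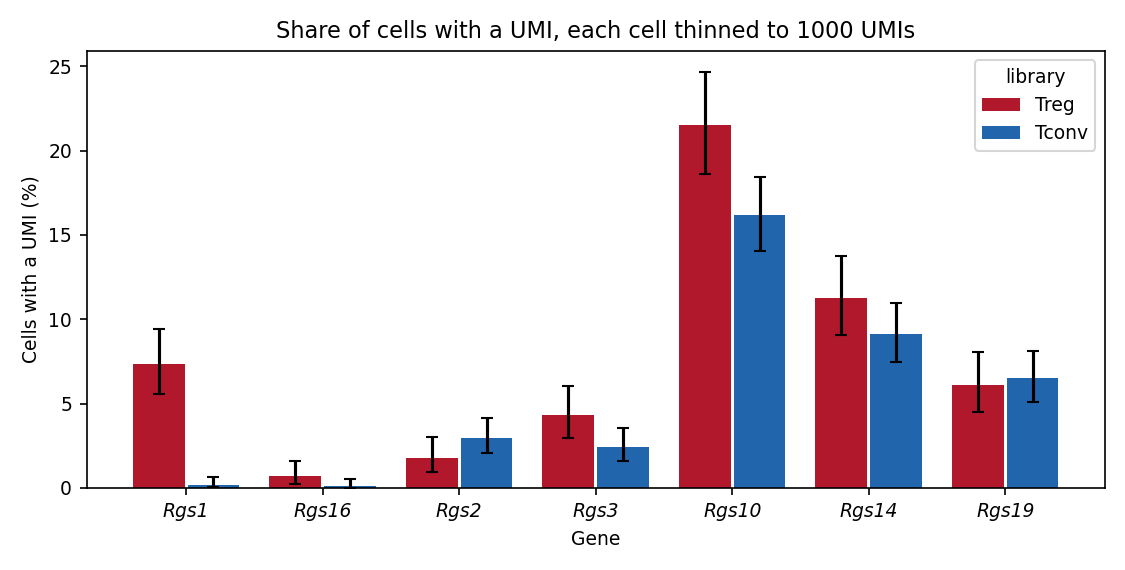
Percentage of cells with a UMI of each gene after every cell was thinned to 1000 UMIs, in the Treg library (red, left of each pair, 738 cells) and the Tconv library (blue, 1108 cells). Bars start at 0 and carry exact 95% binomial intervals, and Rgs10 is seen in the largest share of cells in both libraries while Rgs1 is seen in Treg cells at 7.32% and in Tconv cells at 0.181%.

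Rgs1 was concentrated in few Treg cells. Its 225 UMIs would have reached 192 cells had each fallen on a cell independently in proportion to depth, and they were found in 76. Of these, 33 cells held 1 UMI, 14 held 2 and 29 held 3 or more, and the 29 cells together held 164 of the UMIs. The cell with the most Rgs1 held 25 UMIs, 11.1% of the total, and 14 cells held 50% of it. The Fano factor at equal depth, which is the variance over the mean and equals about 1 for independent counts, was 4.84 for Rgs1. That placed Rgs1 at percentile 99.7 of 5151 genes in the Treg library, whose median was 1.66.

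The other genes were spread more evenly, apart from Rgs2, Rgs14 and, on 11 UMIs in 7 Treg cells, Rgs16. Rgs19 was seen in 74 Treg cells where independent UMIs would reach 85.2, with a Fano factor of 1.17, and in 123 Tconv cells where they would reach 127. Rgs10 was seen in 266 Treg cells against 313 for independent UMIs, and in 298 Tconv cells against 323. Rgs14 was more gathered, in 118 Treg cells against 187 and in 143 Tconv cells against 204, with Fano factors of 2.16 in Treg and 1.45 in Tconv. The fewest cells relative to independent UMIs, after Rgs1, belonged to Rgs2 in Treg, with 22 cells against 52.8.

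**Figure D3:**
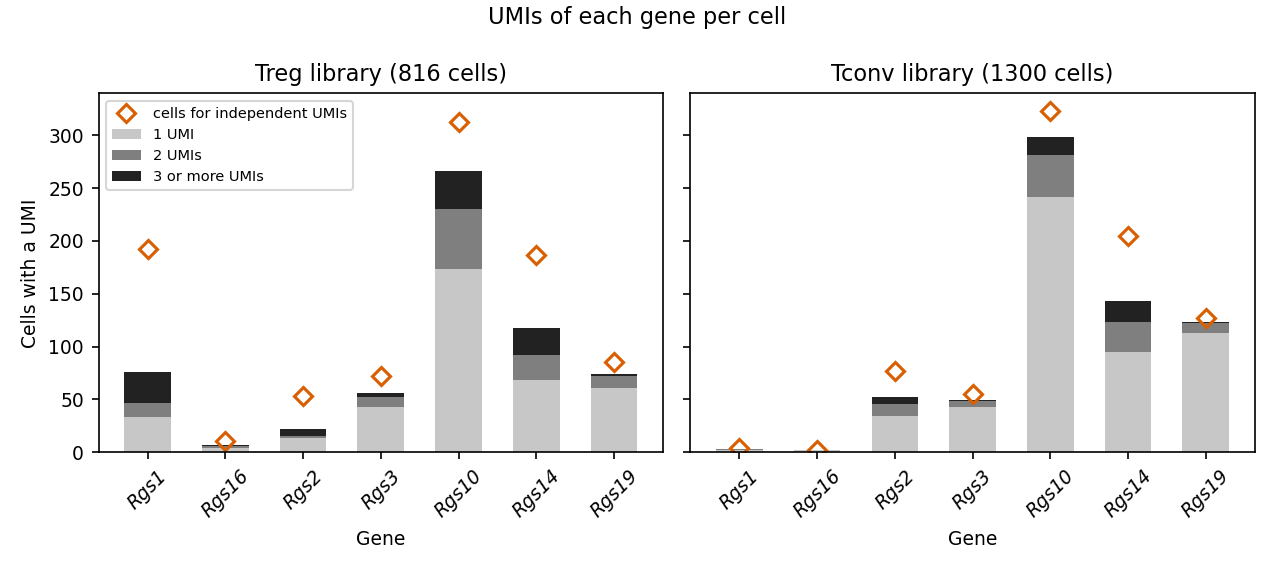
Cells with 1, 2 or 3 or more UMIs of each gene (stacked bars, unthinned) in the Treg library (left) and the Tconv library (right), with the number of cells that independent UMIs would reach (open diamonds). In Treg, Rgs1 stands at 76 cells under a diamond at 192, and Rgs19 at 74 cells under a diamond at 85.2.

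The 76 Treg cells with an Rgs1 UMI were next compared with the 740 without one, within the same library. The Rgs1-positive cells carried more of the Treg signature, a list of 24 genes that mark Treg cells. Over all cells they also held far fewer UMIs of B cell and myeloid genes, but this rested on few Rgs1-negative cells. The B cell list was 123 CPM in Rgs1-positive and 864 CPM in Rgs1-negative cells (log2 -2.81), and the myeloid list 77.8 CPM and 636 CPM (log2 -3.03). In the whole Treg library 25 cells held at least 3 UMIs of the B cell list and 24 of the myeloid list. Of these, 24 and 23 were Rgs1-negative. Without cells of other-type markers the B cell ratio turned to 0.77, higher in Rgs1-positive cells, and the myeloid ratio was -0.84. The Rgs1-positive cells had a median of 1914.5 UMIs against 1656 in Rgs1-negative cells, and Rgs1 itself was left out of every sum. The signature reached 5868 CPM in Rgs1-positive and 4840 CPM in Rgs1-negative cells, a log2 ratio of 0.28 (0.18 to 0.38). It was 0.23 after Rgs1-negative cells were weighted to the same depths, and 0.23 (0.13 to 0.34) without cells of other-type markers. Few single genes were far apart: of 21 signature genes measured, 2 were at least 2-fold higher (9.52%) and 1 at least 2-fold lower (4.76%). Over all 7218 genes measured, 7.4% were at least 2-fold higher in Rgs1-positive cells and 16.6% at least 2-fold lower, so these counts lie near or under the background.

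Of the signature, 6 genes chosen after their values were seen are given here. All 6 have ratios above 0, so they do not stand for the list. The 1 of 21 measured signature genes that was at least 2-fold lower is not among them. Il2ra, the high-affinity chain of the interleukin 2 receptor, had 102 UMIs in the 76 Rgs1-positive and 514 in the 740 Rgs1-negative cells, a log2 ratio of 0.76 (0.44 to 1.07). Ctla4, the inhibitory receptor for B7 ligands, had a ratio of 0.76 (0.10 to 1.36), and Tnfrsf4, which encodes the costimulatory receptor OX40, 0.68 (0.26 to 1.07). Lrrc32 encodes GARP, which holds latent transforming growth factor beta on the surface of Treg cells. It had 35 UMIs in Rgs1-positive and 95 in Rgs1-negative cells, a ratio of 1.65 (1.05 to 2.22). Foxp3 had 62 UMIs in Rgs1-positive and 496 in Rgs1-negative cells, a ratio of 0.09 (-0.31 to 0.47). Izumo1r, a folate receptor family member of Treg and follicular T cells, stood at 0.24 (0.05 to 0.44).

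Cells with many Rgs1 UMIs carried most of the difference. The signature was 4840 CPM in the 740 cells without Rgs1, 5284 CPM in the 33 cells with 1 UMI, 4863 CPM in the 14 cells with 2 and 6948 CPM (6307 to 7636) in the 29 cells with 3 or more. A list of 24 genes known to respond to the T cell receptor followed the same course at its upper end, at 2529 CPM, 1816 CPM, 2286 CPM and 3837 CPM (3365 to 4356). The classes with 1 or 2 UMIs stood at or under the cells without Rgs1 on that list. High Rgs1 did not always come with the signature: of the 4 cells with 9 Rgs1 UMIs, 1 held 0 signature UMIs among its 1797, and 3 of the 76 positive cells held none.

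**Figure D4:**
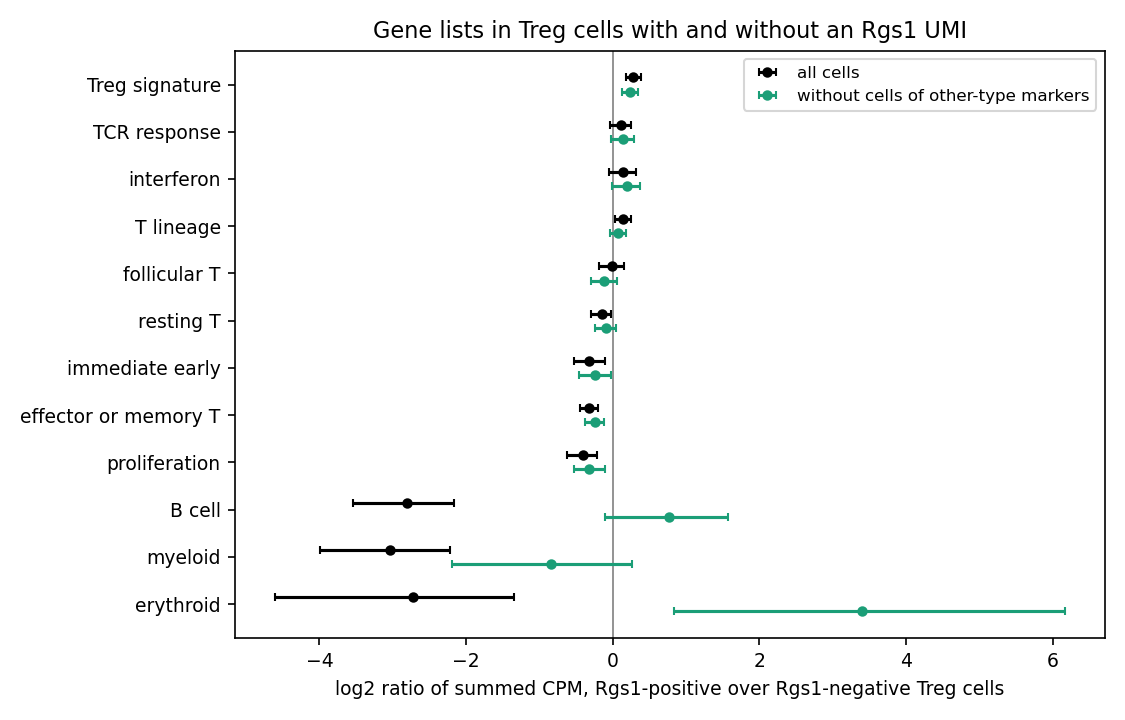
log2 ratio of the summed level of 12 gene lists, Rgs1-positive over Rgs1-negative Treg cells, over all cells (black) and without cells of other-type markers (green), with exact 95% intervals. The Treg signature lies to the right of 0 both ways (0.28 and 0.23), the effector or memory list to the left (-0.32 and -0.25), and the B cell and myeloid lists lie far to the left over all cells only.

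The response list as a whole had a ratio of 0.11 (-0.04 to 0.25) over all Rgs1-positive cells, with members pointing both ways. Of 19 measured, 4 were at least 2-fold higher (21.1%) and 1 at least 2-fold lower (5.26%), beside 7.4% and 16.6% of all genes. Myc, a driver of growth, had 77 UMIs in 13 Rgs1-positive cells and 203 UMIs in 39 Rgs1-negative cells, a log2 ratio of 1.69 (1.29 to 2.08). Cd83, a surface protein of activated lymphocytes, had a ratio of 1.11 (0.22 to 1.92). The transcription factors Egr2 (2.24, 1.38 to 3.07) and Irf4 (1.77, 0.55 to 2.88) were also higher, but their UMIs in Rgs1-positive cells came from 2 cells and 1 cell. Junb (-0.83, -1.58 to -0.16) and Dusp2 (-0.43, -0.83 to -0.05), an activation-induced transcription factor and phosphatase, were lower. Tnfaip3, an inhibitor of NF-kappaB signalling, had 0 UMIs in Rgs1-positive and 87 in Rgs1-negative cells, at least 3.4-fold lower with 0 set to 3 counts over the class.

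The effector or memory list, which gathers genes of antigen-experienced T cells, was lower in Rgs1-positive cells, at 3644 CPM against 4564 CPM in Rgs1-negative cells (-0.32, -0.45 to -0.20). Of its 20 measured members 0 were at least 2-fold higher and 4 at least 2-fold lower (20%), against 16.6% of all genes. S100a6 and S100a4, calcium-binding proteins of memory cells, had ratios of -0.77 (-1.22 to -0.35) and -0.97 (-1.77 to -0.27). The integrin gene Itgb1 stood at -0.79 (-1.35 to -0.28) and the memory marker Ly6a at 0.28 (-0.03 to 0.59). With each cell thinned to 1000 UMIs the list's ratio was 0.0377, and thinned to 500 UMIs it was -0.54. At 1000 UMIs S100a6 stood at 0.21 and S100a4 at 0.00332. The resting list (-0.15, -0.29 to -0.02) likewise turned to 0.0466 when thinned. Genes of proliferation (-0.41, -0.62 to -0.21) and immediate early genes (-0.32, -0.53 to -0.11) had lower sums in Rgs1-positive cells. Of 11 proliferation genes 1 was at least 2-fold lower (9.09%) and of 9 immediate early genes 2 were (22.2%), beside 16.6% of all genes, and interferon-induced genes stood at 0.14 (-0.05 to 0.32).

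The genes farthest above an even ratio, by the interval bound, included Cish, Rtp4, Mpp5, Egr2, Nfkbiz, Lin7c, Tnf, Fancl, Fgl2, Atp2c1 and Osm. Cish, a feedback inhibitor induced by interleukin 2 and STAT5, was seen in 22 of 76 Rgs1-positive cells (28.9%) and 68 of 740 Rgs1-negative cells (9.19%), a log2 ratio of 1.96 (1.46 to 2.44). At equal depth Cish was seen in 16.7% of Rgs1-positive (7.92 to 29.3) and 6.14% of Rgs1-negative cells (4.46 to 8.21). The cytokine gene Osm had 11 UMIs in 5 Rgs1-positive and 9 UMIs in 5 Rgs1-negative cells, a ratio of 3.38 (1.97 to 4.83), and Tnf stood at 2.54 (1.40 to 3.64) on 13 and 19 UMIs. Fgl2, which encodes a secreted protein of Treg cells, stood at 2.70 (1.54 to 3.83), Nfkbiz, a modulator of NF-kappaB, at 2.31, and Rtp4, an interferon-induced chaperone of receptors, at 2.05 (1.46 to 2.62). Atp2c1, a calcium pump of the Golgi, had a ratio of 2.84 (2.03 to 3.64), and Mpp5 and Lin7c, partners in a polarity complex, 2.21 and 2.54. Of those named, all but Cish and Rtp4 rest on fewer than 10 Rgs1-positive cells each.

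The genes farthest below included H2-Eb1, H2-Aa, H2-Ab1, Plac8, Cd79a, Unc50, Trim33, Tvp23b, Tnfaip3, Btg2 and Rnf2. The first 5 came from few cells: H2-Eb1, H2-Aa and H2-Ab1 encode MHC class II chains and Cd79a a chain of the B cell receptor. All 250 UMIs of H2-Eb1 lay in Rgs1-negative cells, 245 of them in cells of other-type markers. The bounds of genes at 0 in the positive class are set by the UMIs that class holds: with cells thinned to 1000 UMIs they were a log2 ratio of -0.03 for Plac8, -0.11 for H2-Ab1, -0.24 for Trim33, -0.42 for Unc50 and -0.48 for Tvp23b. Btg2, at -2.95 when thinned, moved less. This antiproliferative immediate early gene was seen in 2 of 76 Rgs1-positive and 107 of 740 Rgs1-negative cells, a log2 ratio of -3.57 (-6.63 to -1.70). At equal depth Btg2 was seen in 1.85% of Rgs1-positive (0.0469 to 9.89) and 10.1% of Rgs1-negative cells (7.93 to 12.6), and these intervals overlap.

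Signalling partners of RGS proteins stood on both sides of an even ratio between the 2 classes of Treg cells. Gnai2, which encodes the main Gi alpha subunit of lymphocytes, had a log2 ratio of -0.22 (-0.53 to 0.07) and Gnas, the alpha subunit that stimulates adenylyl cyclase, -0.09 (-0.34 to 0.14). Gnb5 (2.02, 0.77 to 3.17) and Gnaq (1.65, 0.16 to 2.96), a beta subunit and the Gq alpha subunit, were higher on 10 and 7 UMIs in Rgs1-positive cells. Both rest on few cells, as the whole Treg library held 7 cells with Gnb5 and 13 with Gnaq. The gamma subunits Gng5 (-0.71, -1.24 to -0.23) and Gng2 (-2.10, -5.17 to -0.19) were lower. Among receptors, P2ry10, for lysophosphatidylserine, stood at 1.28 (0.56 to 1.95) and Ptger4, for prostaglandin E2, at 0.97 (0.11 to 1.74). Ccr7, which guides T cells into the white pulp, stood at -0.15 (-0.72 to 0.38), Cxcr4 at -1.86 (-4.94 to 0.05), Gpr183 at -0.80 (-2.05 to 0.22), Cxcr5 at -0.75 (-3.08 to 0.89), S1pr4 at -0.56 (-1.59 to 0.33) and S1pr1 at -0.06 (-0.48 to 0.33).

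Foxp3 and Rgs1 were seen in overlapping sets of Treg cells. Foxp3 was seen in 39 of 76 Rgs1-positive cells (51.3%) and 258 of 740 Rgs1-negative cells (34.9%). At equal depth this was 37.0% (24.3 to 51.3) and 27.6% (24.3 to 31.1), and these intervals overlap. Read the other way, Rgs1 was seen in 9.57% of 209 thinned Treg cells with Foxp3 (5.94 to 14.4) and 6.43% of 529 without (4.49 to 8.87). In Tconv, the 3 cells with Rgs1 held 0 Foxp3 UMIs each.

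The genes whose counts per cell ran most like Rgs1 in 738 thinned Treg cells, out of 6678 seen in at least 10 cells, were Lrrc32 (Pearson r 0.2), Slc22a5 (0.197), Myc (0.184) and Hist1h2an (0.179). These are weak correlations over cells of 1 library. Lrrc32 was seen in 20.4% of Rgs1-positive cells (10.6 to 33.5) and 4.68% of Rgs1-negative cells (3.22 to 6.54) at equal depth. Myc was seen in 18.5% of Rgs1-positive (9.25 to 31.4) and 4.53% of Rgs1-negative cells (3.10 to 6.37). Slc22a5, a carnitine carrier, rests on 5 cells that held both genes, and Hist1h2an on 3.

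Rgs2-positive cells held more UMIs of myeloid genes in both libraries, through few of the cells. At least 3 UMIs of the myeloid list were held by 5 of the 22 Rgs2-positive Treg cells and 6 of the 52 Rgs2-positive Tconv cells. These held 19 of the 55 Rgs2 UMIs in Treg and 18 of the 80 in Tconv. In Treg, 6 Rgs2-positive cells with at least 3 UMIs of the B cell list held 28 Rgs2 UMIs, and some cells can count under both lists. In Treg the myeloid list was 12836 CPM in the 22 Rgs2-positive cells and 160 CPM in the others (log2 6.33), and in Tconv 4683 CPM in the 52 Rgs2-positive cells and 93.4 CPM in the others (log2 5.65). The lysozyme gene Lyz2 had 105 UMIs in Rgs2-positive and 1 in Rgs2-negative Treg cells, and 100 in Rgs2-positive and 2 in Rgs2-negative Tconv cells. In each library these came from few cells, 3 in Treg and 4 in Tconv. T lineage genes were lower in Rgs2-positive cells by a log2 ratio of -0.73 (-0.98 to -0.48) in Treg and -0.22 (-0.36 to -0.07) in Tconv. Without cells of other-type markers the T lineage ratios were -0.05 and -0.03. Cd300a, an inhibitory receptor of myeloid cells, had the counts most like those of Rgs2 in Tconv (r 0.247, 1108 cells).

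Rgs3-positive Treg cells carried more of the proliferation genes and less of the resting ones. They were also deeper, at a median of 2048 UMIs against 1658.5 in Rgs3-negative cells. The ratios given here are not weighted for depth. The proliferation list was 2933 CPM in 56 Rgs3-positive and 1675 CPM in 760 Rgs3-negative cells (0.81, 0.65 to 0.96). Pcna, the sliding clamp of replication, had a log2 ratio of 1.22 (0.81 to 1.62) and the tubulin gene Tuba1b 1.06 (0.78 to 1.32). The resting list stood at -0.73 (-0.90 to -0.56), with Lef1, a transcription factor of naive T cells, at 0 UMIs in Rgs3-positive and 83 in Rgs3-negative cells. The follicular list was higher (0.54, 0.39 to 0.70), with Icos, a costimulatory receptor, at 1.02 (0.52 to 1.49). The myeloid list moved with these (3.47), and without cells of other-type markers the values were 0.61 for proliferation, -0.62 for resting and 0.60 for follicular genes. In Tconv the same lists stood at 0.05 (-0.17 to 0.27), -0.15 (-0.29 to -0.02) and -0.26 (-0.83 to 0.26).

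Rgs10 was seen in enough cells of both libraries to describe each. Among Tconv cells, the 298 Rgs10-positive ones had 596 CPM of the Treg signature and the 1002 Rgs10-negative ones 392 CPM (0.61, 0.40 to 0.81), and the follicular list stood at 0.76 (0.56 to 0.97). Much of this was Izumo1r, which is on both lists. Izumo1r had 146 UMIs in Rgs10-positive and 174 in Rgs10-negative Tconv cells (1.32, 0.99 to 1.64). Without it the ratios were 0.16 (-0.12 to 0.43) for the signature and 0.40 (0.12 to 0.67) for the follicular list. At equal depth Izumo1r was seen in 15.6% of Rgs10-positive (10.7 to 21.8) and 6.35% of Rgs10-negative Tconv cells (4.87 to 8.12), and of all genes compared its counts ran most like those of Rgs10 there (r 0.143, 1108 cells). In Treg, Izumo1r was seen in 56.6% of Rgs10-positive (48.5 to 64.4) and 48.5% of Rgs10-negative cells (44.4 to 52.7).

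Among Treg cells the Rgs10-positive ones had less of the effector or memory list, at 3463 CPM in 266 cells, against 5055 CPM in 550 Rgs10-negative cells (-0.55, -0.62 to -0.47). S100a6 stood at -1.38 (-1.65 to -1.11) and S100a4 at -1.2 (-1.63 to -0.79). In Tconv the effector or memory list stood at -0.08 (-0.18 to 0.01), and the difference between the libraries was not tested. In Treg, depth weighting gave -0.69 and leaving out cells of other-type markers -0.51 for the list. At equal depth S100a6 was seen in 7.55% of Rgs10-positive (3.96 to 12.8) and 11.6% of Rgs10-negative Treg cells (9.08 to 14.5), where the intervals overlap. The B cell list was lower in Rgs10-positive cells of both libraries, with log2 ratios of -3.11 in Treg and -2.80 in Tconv. As in the Rgs1 classes, this rested on few cells. At least 3 UMIs of that list were held by 25 Treg and 12 Tconv cells, of which 3 and 1 held Rgs10.

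By summed level, Rgs19-positive Treg cells were the reverse of Rgs10-positive ones on the effector or memory list. It was 6507 CPM in 74 Rgs19-positive and 4226 CPM in 742 Rgs19-negative cells (0.62, 0.52 to 0.72), with S100a6 at 1.31 (1.06 to 1.56) and Itgb1 at 1.29 (0.99 to 1.59). The response list stood at 0.41 (0.27 to 0.54), with Nr4a1, an orphan receptor induced by T cell receptor signals, at 1.65 (1.02 to 2.25), and the signature at 0.22 (0.12 to 0.32). These ratios are not weighted for depth, and Rgs19-positive Treg cells were deeper, at a median of 1933.5 UMIs against 1653 in Rgs19-negative ones. At equal depth S100a6 was seen in 11.1% of Rgs19-positive (3.71 to 24.1) and 10.7% of Rgs19-negative Treg cells, a difference within counting error. In Tconv the signature ran the other way in Rgs19-positive cells (-0.59, -0.98 to -0.21), on 62 UMIs in 123 cells. The difference between the 2 libraries was not tested.

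For Rgs14-positive cells the signature stood at 0.09 (-0.004 to 0.18) in Treg and 0.33 (0.06 to 0.60) in Tconv, and the effector or memory list at 0.34 (0.25 to 0.43) in Treg and 0.36 (0.25 to 0.47) in Tconv. Myeloid genes moved with them, with log2 ratios of 1.23 in Treg and 2.52 in Tconv. Without cells of other-type markers the effector or memory list was 0.09 in Treg and 0.21 in Tconv.

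**Figure D5:**
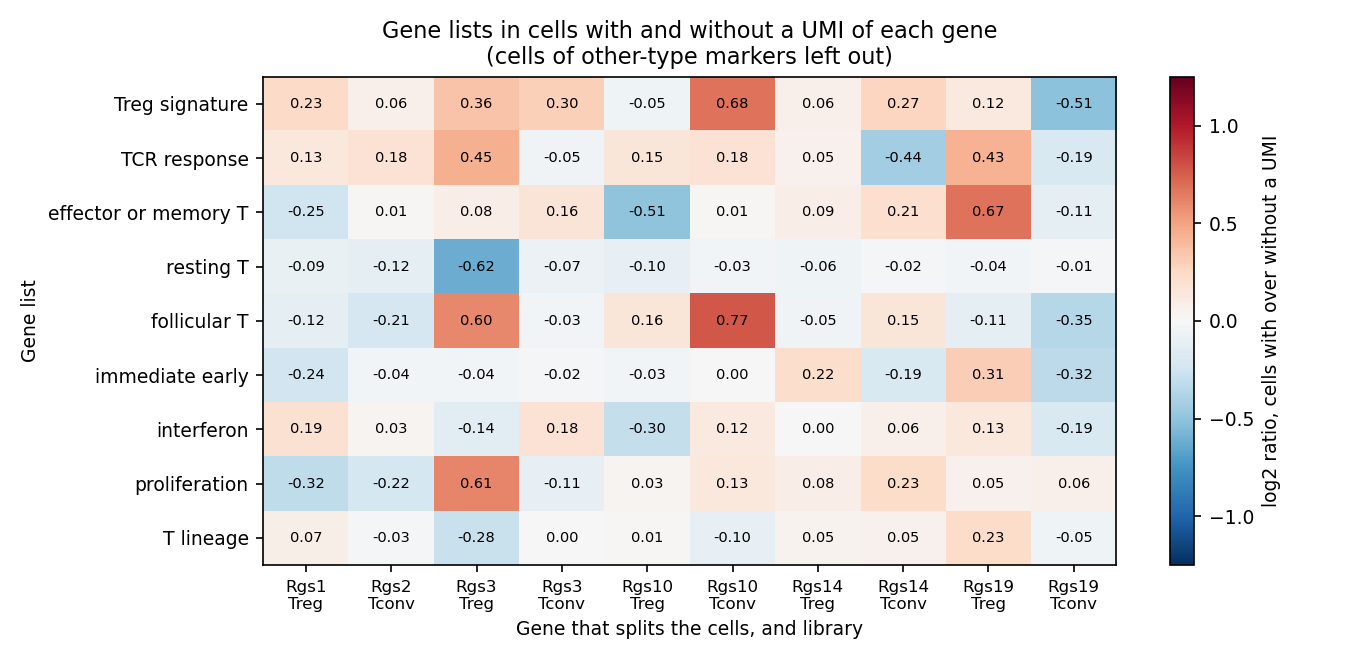
log2 ratio of the summed level of 9 gene lists (down the page) in cells with over cells without a UMI of a given gene, for each gene and library with at least 20 positive cells left after cells of other-type markers were left out (across). Red marks lists that were higher in the positive cells and blue those that were lower, with the effector or memory list at -0.51 for Rgs10 and 0.67 for Rgs19 in Treg.

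Last, the 7 genes were read against each other within cells. At equal depth Rgs10 was seen in 22.2% of Rgs1-positive Treg cells (12 to 35.6) and 21.5% of Rgs1-negative ones (18.5 to 24.8). Rgs14 was seen in 5.56% of Rgs1-positive (1.16 to 15.4) and 11.7% of Rgs1-negative Treg cells (9.38 to 14.3). Rgs19 was seen in 15.6% of the 32 Rgs3-positive (5.28 to 32.8) and 5.67% of Rgs3-negative Treg cells (4.08 to 7.64). Rgs14 was seen in 17.8% of Rgs19-positive (8.00 to 32.1) and 10.8% of Rgs19-negative Treg cells (8.61 to 13.4). For Rgs10 and Rgs14, on more cells, Rgs14 was seen in 16.4% of Rgs10-positive (11 to 23.0) and 9.84% of Rgs10-negative cells (7.54 to 12.6). In Tconv, Rgs14 was seen in 6.70% of Rgs10-positive (3.51 to 11.4) and 9.58% of Rgs10-negative cells (7.76 to 11.7). In each of these pairs the intervals overlap.

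The other parts of the pathway were read from 8 gene lists. Of 15 further RGS genes, 14 were in the table, 8 of these had 0 UMIs in both libraries, and 2 were measured on at least 20 UMIs. Rgs20 had 12 UMIs in Treg and 8 in Tconv (log2 1.03, -0.38 to 2.53), and Rgs11 had 5 in Treg and 19 in Tconv (-1.48, -3.25 to -0.01). In Treg the 7 genes held 1089 UMIs and the further 14 held 24, and in Tconv 881 and 37.

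Among the G protein subunits, medians lay above that of all genes. Of 7 alpha subunits measured, 1 was at least 2-fold higher (14.3%) and 0 lower by as much, beside 8.61% and 3.6% of all genes. Their median was 0.44 beside 0.14 over all genes. Gna15, a Gq class subunit of blood cells, had 23 UMIs in Treg and 6 in Tconv (2.39, 1.05 to 3.97), while Gnai3 stood at 0.44 (0.21 to 0.67) and Gnas, with the most UMIs, at 0.28 (0.18 to 0.38). Of 4 beta subunits, 2 were at least 2-fold higher (50%) and 0 lower by as much. On lists this short 1 gene changes the share by much, so these counts are not read as a result. Gnb5, which pairs with RGS proteins of another subfamily in neurons, had 31 UMIs in 7 Treg cells and 0 in Tconv, at least 14.1-fold higher with 0 set to 3 counts over the library. Gnb4 stood at 1.59 (0.78 to 2.46) and the abundant Gnb1 at 0.22 (0.06 to 0.39). Of 5 gamma subunits 1 was at least 2-fold higher (20%) and 0 lower by as much. This was Gng12 at 1.11 (0.36 to 1.87), with Gng2 just inside 2-fold at 0.98 (0.45 to 1.52). Gng5, with 554 UMIs in Treg and 837 in Tconv the member with the most UMIs, stood the other way at -0.15 (-0.30 to 0.01).

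Receptors upstream differed in both directions. Of 32 chemoattractant, lipid and other receptors measured, 6 were at least 2-fold higher in Treg (18.8%) and 3 at least 2-fold lower (9.38%), beside 8.61% and 3.6% of all genes, with a median of 0.48. Gpr83, a receptor long known as a Treg marker, had 211 UMIs in Treg and 17 in Tconv (4.08, 3.37 to 4.89), and Ptger2, a receptor for prostaglandin E2, 28 in Treg and 5 in Tconv (2.93, 1.54 to 4.66). Vipr1, for vasoactive intestinal peptide, had 15 UMIs in Treg and 211 in Tconv (-3.37, -4.23 to -2.61). Cxcr6, which binds CXCL16, was not seen in Treg and had 61 UMIs in 25 Tconv cells, at least 14.9-fold lower in Treg with 0 set to 3 counts. S1pr1, which guides exit from lymphoid tissue and had the most UMIs of the list over both libraries, was lower in Treg at -0.30 (-0.46 to -0.15).

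The steps that switch receptors off and those below the G protein follow. Of 6 receptor kinases and arrestins measured, 0 were at least 2-fold higher and 1 at least 2-fold lower (16.7%), beside 8.61% and 3.6% of all genes, with a median of -0.28. Adrbk1 and Grk6, kinases that mark active receptors for arrestins, stood at -0.34 (-0.56 to -0.13) and -0.43 (-0.69 to -0.17), and Arrb1 at 0.64 (0.01 to 1.29). Of 12 effectors, 1 was at least 2-fold higher (8.33%) and 2 at least 2-fold lower (16.7%), beside the same 8.61% and 3.6%. Pik3r5, the regulatory subunit of the PI3 kinase driven by G proteins, stood at -1.31 (-1.87 to -0.79) and Adcy7, an adenylyl cyclase, at -0.79 (-1.12 to -0.46). Arhgef12, a guanine nucleotide exchange factor driven by alpha subunits, stood at 1.27 (0.36 to 2.22). Arhgef1, of the same kind and the effector with the most UMIs, stood at -0.05 (-0.18 to 0.08). Of 11 other regulators of alpha subunits, 0 were at least 2-fold higher and 1 at least 2-fold lower (9.09%), beside 8.61% and 3.6% of all genes. Their median of 0.13 turned to -0.00249 and -0.03 under the 2 other scalings. Gpsm2 had 3 UMIs in Treg and 35 in Tconv (-3.10, -5.44 to -1.43), and Gpsm3, like Gpsm2 a protein that binds inactive alpha subunits, stood at -0.60 (-0.82 to -0.39).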

How the data were processed

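Per the labels' protocols, CD4+ T cells were sorted from spleen and run through inDrops, with oligo dT priming, linear amplification and reads from a NextSeq500. What the authors deposited is a table of raw UMI counts per gene and cell, whole numbers not normalized by the authors, for 23725 genes and 2116 cells. TopHat2, SAMtools and mm10 are named in the submitters' processing notes, without roles. For the UMI counter, the annotation and a filter on cells, the answer is not given in the sources used here. Cells were grouped by the sample type in the labels, with title codes read through the series title. The libraries held 1468203 UMIs in Treg and 2002752 in Tconv.

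UMIs were summed per library and scaled to 1000000 per library (CPM), with exact Poisson intervals for sums, exact conditional intervals for ratios and Clopper-Pearson intervals for shares, at 95%. Genes counted in the shares past 2-fold had at least 20 UMIs. The 12 genes each way for the Rgs1 classes were also asked to be seen in at least 10 Treg cells. The counts and shares past 2-fold in classes of cells carry no such filter on cells. A sum of 0 was set to 3 counts for bounds (2.04 CPM over the Treg and 1.50 CPM over the Tconv library). Cells of 1 library are not replicates, so no p-value was computed. Thinning drew 1000 UMIs per cell without replacement and left out 78 shallower Treg and 192 Tconv cells. Depth weighting used 10 bins of cell depth. UMIs count molecules and were not divided by gene length, so UMI numbers of different genes say which gave the most UMIs, not which had the higher level. Gene positions were matched by symbol. The steps were checked on simulated counts.

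The 7 genes and 24 gene lists (376 entries, 16 not in the table) were chosen with earlier results of these data known. Besides the 7 genes, those named were up to 4 members of each pathway list with the interval bound farthest from an even ratio plus the one with the most UMIs, the 12 genes each way for the Rgs1 classes, the 5 most like Rgs1, and up to 4 members of other lists, chosen after their values were seen. A few genes that this rule picks are not reported here. Alternatives were other scalings (edgeR 4.0.16 for TMM), thinning, equal weight per cell, and cells left out as doublets (scrublet in scanpy 1.11.5), deep cells, cells of other-type markers, and, added after seeing the data, cells of B cell or myeloid markers and cells whose barcode is in both libraries. Python 3.11.15, numpy 2.4.6, scipy 1.17.1 and pandas 2.3.3 were used.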

Additional observations from a re-analysis of the deposited data

How the results depend on the processing

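The Treg over Tconv ratios of the 7 genes kept their direction under every scaling, weighting, thinning and selection of cells tried, and that of Rgs2 moved to -0.77 without cells of other-type markers and to -0.70 without cells of B cell or myeloid markers, a selection added after seeing the data. In the Rgs1 classes, the signature ratio moved to 0.41 with cells thinned to 1000 UMIs and 0.53 at 500. The response list moved to 0.36 when thinned to 1000 UMIs and 0.39 with at least 2 Rgs1 UMIs asked for. The effector or memory list gave 0.0377 at 1000 UMIs and -0.54 at 500, -0.19 with at least 2 Rgs1 UMIs and -0.18 without cells above 2 times the median depth, and the resting list gave 0.0466 at 1000 UMIs. The cause was not tested. Thinning to 1000 UMIs leaves 54 Rgs1-positive and 684 Rgs1-negative cells. With no filter on low counts, 13.3% of all genes were at least 2-fold higher in Treg, 11.9% at least 2-fold higher in Rgs1-positive cells and 9.20% at least 2-fold lower in them, against 8.61%, 7.4% and 16.6%. Of single genes, Snx14 turned to -0.24 in Treg over Tconv when thinned, and in the Rgs1 classes Cd79a turned to 1.98 without cells of other-type markers, S100a4 to 0.00332 and S100a6 to 0.21 when thinned. Of 350 values for named genes under alternatives, 307 stayed within the main interval. Scrublet called 1 Treg and 12 Tconv cells, under 0.5% of the Treg library, so doublets were hardly removed. No paired analysis was possible because each group is 1 library, and leaving out a replicate was not possible for the same reason. Depth limits Rgs16, Rgs2 in Treg and all shares among the 76 Rgs1-positive cells.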
